A study of Bos taurus with 10 samples.

Results

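The clones described here are the 147 of 4608 cDNA clones (3.19%) that gave the strongest signal in the endometrium of cycling cattle. They were selected on measured values: a clone was kept when its mean intensity over the control animals with a value was at least 100, unless it was lower in the pregnant twin of every pair with both values. Of the 4608 clones, 179 reached the limit and 32 of these were left out for their direction. The level in controls and the direction between twins are therefore what chose the clones, and values of either kind are given below as descriptions without a test.

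The study compared 5 pregnant Simmental cattle with their 5 non-pregnant monozygotic twins, produced by embryo splitting and aged 61 to 69 months. Lactations were equal within pairs 1, 2 and 3, at 3, 1 and 1. In pairs 4 and 5 the pregnant twin had 2 and the control 1. In those pairs pregnancy and number of lactations cannot be told apart. All animals had their estrus synchronised with Cloprostenol and were sampled on day 18. The pregnant twins had received in vitro produced blastocysts on day 7, while the controls had received a sham transfer of medium on day 7 and were cycling. Tissue was intercaruncular endometrium of the uterine horn on the side of the transfer, and serum progesterone before slaughter was 2.5 to 7.6 ng/ml in the pregnant animals and 1.9 to 4.5 ng/ml in the 4 controls with a usable label. The labels disagree on a single animal. For the pair 2 animal that the title and source call a control, the treatment description is the same as for its pregnant twin, embryo transfer and hormone level included. Here it counts as a control with unknown progesterone, and the main counts are also given without pair 2.

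The endometrium is the glandular lining of the uterus. After ovulation the progesterone of the corpus luteum prepares it to secrete nutrients and to receive the embryo. In cattle the elongating conceptus signals its presence by secreting interferon tau, which acts on the uterine lining and preserves the corpus luteum. Transcripts that are abundant in the cycling lining at this stage form the background against which that signal is measured.

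The clones come from subtracted cDNA libraries, in which transcripts shared by both tissues had been reduced and those favoured in pair 4's pregnant animal enriched. Clones with a strong control signal are thus what remained abundant after a selection in favour of pregnancy, and they are no census of the cycling endometrium. Several clones can carry the same cDNA, so clones are not independent of each other. None of the 4608 clone identifiers matched a cattle gene in the RefSeq table, and the files pair clones neither with genes nor with sequences. Clones are named here by prefix, plate and well only, and the labelled tissue could not be checked against marker genes. RNA came from pieces of whole tissue, so fewer cells of a type and less RNA per cell cannot be told apart.

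Signals came from 3 separately spotted arrays per animal, here called A, B and C, hybridised with 33P-labelled cDNA. The arrays were spotted with 1536 clones each. The authors left out array B of pair 4, so the 47 clones of the set on array B have values in 4 pairs and the other 100 in all 10 samples. The animals are separate individuals, and SDs over a group measure the spread between animals. Pair 2 was the brightest: the median intensity of the set was 232 in its control and 255 in its pregnant twin. The other controls lay between 125 and 133, and the other pregnant animals between 109.5 and 138.

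The control means of the 147 clones ran from 100.3 to 684 with a median of 168, whereas the median control mean of all 4608 clones was 1.45. Only 20 of the 147 reached 400 and 54 reached 200. The 6 highest control means were all on array B. First among them was 18c-29-A07, with control intensities of 395, 720.2, 759 and 862 in pairs 1, 2, 3 and 5 (mean 684 ± 202, SD, n = 4). Its pregnant intensities were 337, 822, 666 and 826 (mean 663 ± 229.5, SD, n = 4). The groups overlapped, and both animals of pair 1 were the lowest of their group.

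18c-2(VS)-G09 measured 482, 382, 893 and 756 in the controls of pairs 1, 2, 3 and 5. The pregnant twins measured 231, 136, 658 and 937. 18c-1(VS)-A03 had nearly the same profile, with 367, 362, 858 and 785 in the controls and 176, 127, 656 and 909 in the pregnant twins. Both clones were bright in both animals of pairs 3 and 5 and far dimmer in the pregnant animals of pairs 1 and 2, and their log2 values correlated with r = 0.99 over 8 samples.

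Another like pair on array B was 18c-21-H03 and 18c-21-D05 (r = 0.96 over 8 samples). 18c-21-H03 measured 309, 891, 674 and 581 in the controls, against 309.9, 223, 613 and 472 in the pregnant twins. For 18c-21-D05 the values were 317, 729, 711 and 640.3 in the controls and 398, 244, 434 and 369 in the pregnant twins. The widest gap between twins was in pair 2, where the control exceeded the pregnant animal by 3.99-fold in 18c-21-H03 and by 2.99-fold in 18c-21-D05.

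18c-29-B10 had the highest pregnant mean of all clones on the arrays. It measured 640.5, 406, 478 and 821 in the controls and 438, 904, 698 and 909 in the pregnant twins. It was brighter in the pregnant animal in 3 of 4 pairs and dimmer in pair 1.

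The brightest clones of the other prefixes were on array C and had values in every pair. 18f-02-C11 measured 555, 840.4, 512, 407 and 502 in the controls of pairs 1 to 5 and 466, 376, 601, 399 and 630.1 in the pregnant twins. It also had the second smallest spread between controls once samples were scaled to a common median (SD 0.20 on the log2 scale, n = 5). 18e-03-F03 measured 609, 759.7, 354, 211 and 398 in the controls and 407, 421, 422, 334 and 504 in the pregnant twins. In both clones the control of pair 2 was the brightest sample.

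Membership near the limit turned on small differences. 18c-30-G02 and 18c-05-E06 lay just inside, with control means of 100.3 and 100.8, while 18f-02-A04 and 18c-03-A11 lay just outside with 99.4 and 98.6. Their control SDs were 39.3 (n = 4), 56.2, 46.2 and 58.4 (n = 5 each), many times the distance to the limit. The brightness of pair 2 mattered here: without pair 2, 111 clones met the rule, of which 109 were among the 147. When samples were first scaled to a common median, 92 clones met it and 75 of them were among the 147.

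The mean also hid uneven controls. All measured controls were at 100 or above for 46 of the 147 clones, and 7 clones had a single control at that level. For 27 clones the control median was below 100. The control of pair 2 was the brightest control for 82 clones and the dimmest for 5. In rank, 122 clones were among the top 10% of measured clones in every sample in which they were measured, and 46 were among the top 5%. Clones chosen for a high control mean start near the top of the ranks, so this only describes them.

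By prefix, 84 of 3072 18c clones (2.73%, exact 95% interval 2.19 to 3.37%), 21 of 768 18e clones (2.73%, 1.70 to 4.15%) and 42 of 768 18f clones (5.47%, 3.97 to 7.32%) were in the set. The intervals cover counting error only. 45 of 48 plates held at least 1 of the clones, and plate 18f-03 held 10, the most of any plate. Of the 32 clones left out for their direction, 30 were 18c clones and 25 lay on array B, where only 4 pairs had to agree.

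The 147 clones carried a large and even part of the signal of cycling endometrium. Their share of the summed intensity was 44.1, 42.5, 43.3, 42.8 and 43.6% in the controls of pairs 1 to 5. In the pregnant twins it was 30.5, 33.6, 36.9, 31.5 and 34.9%. Pair 4 lacked array B, so its shares cover arrays A and C only, with 100 clones of the set. The share was smaller in the pregnant animal of all 5 pairs, with a mean difference of -9.77 percentage points (SD 2.75, n = 5 pairs), and no pregnant value reached the lowest control value. Without pair 2 the mean difference was -9.98 percentage points.

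As chosen by the rule, the set had a summed signal that differed little between twins, and that of the other clones differed more. For pairs 1 to 5, the summed intensity of the set in the pregnant twin was 0.843, 0.928, 0.989, 1.11 and 0.977 times the control. That of all other clones was 1.51, 1.36, 1.29, 1.8 and 1.41 times the control. In pair 4 both sums cover arrays A and C only, with 100 clones of the set. The libraries had been enriched for transcripts of pregnancy, so the other clones are no neutral sample of the tissue. The 32 clones left out as lower in every pregnant twin counted among the other clones. The rule thus set part of both ratios, and no test was made.

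The smaller share was present on each array. The mean difference, pregnant minus control, was -7.06 percentage points on array A, -3.98 on array B and -13.5 on array C, and it had this direction in every pair measured on each. Because clones were chosen on their control level, part of this direction is built into the choice, and no test was made. The mirrored choice, made after the data were seen, took the 157 clones with a pregnant mean of at least 100 that were not higher in every pregnant twin. It shared 120 clones with the set, which were 81.6% of the set and 76.4% of the mirrored list. Because it dropped 93 clones that were higher in every pregnant twin, its signal share has a direction partly fixed in the same way and was not used.

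How much a clone varied between control animals was not part of the rule, although a control mean can reach the limit through 1 bright animal. As deposited, the brightest control exceeded the dimmest by a median of 3.61-fold, with 14 clones under 2-fold and 62 over 4-fold. On the log2 scale with samples set to a common median, the median SD over controls was 0.75 for the set and 0.74 for all clones. Over the pregnant animals it was 0.59 for the set and 0.74 for all clones. The set was thus about as variable as all clones in cycling animals, on this scale only. As deposited, the median SD over controls was 0.76 for the set and 0.84 for all clones.

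Among the steadiest was 18f-05-A11, with 148, 232, 88.5, 109 and 132 in the controls (SD 0.16 on the log2 scale after centring, n = 5) and 156, 275, 109, 75.6 and 149 in the pregnant twins. Its values followed the overall brightness of the samples. 18c-21-D12 had the narrowest range of deposited control values, 248, 247, 211 and 283, and measured 188, 275, 187 and 202 in the pregnant twins. This clone was picked out after its values had been seen.

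The largest spread belonged to 18c-04-A05 and 18c-01-A04, which lie on different plates of array A and had almost the same profile (r = 0.98 over 10 samples). 18c-04-A05 measured 238, 277, 4.48, 246 and 128 in the controls and 676, 535, 12.6, 27 and 47.2 in the pregnant twins. In 18c-01-A04 the controls measured 99.3, 205, 3.83, 208 and 142, and the pregnant twins 419, 485, 13.8, 32.8 and 40.6. Both clones were far dimmer in both animals of pair 3 than in any other control, though still above the median clone of those samples (0.92 and 1.68). They were brighter in the pregnant animal of pairs 1, 2 and 3, and dimmer in that of pairs 4 and 5. The control range was 61.8-fold and 54.4-fold. On all arrays, 9 other clones correlated with 18c-04-A05 at r of at least 0.90, with 18c-03-E10 (r = 0.98), which is outside the set, as the closest.

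Most of the clones stayed bright in pregnancy. The pregnant mean was at least 100 for 125 of the 147 clones (85%), and the lowest pregnant mean in the set was 73.8. Across the arrays 250 clones had a pregnant mean of at least 100, so the same 125 clones made up 50% of that list. The median pregnant mean of the set was 169, against a median control mean of 168. These are values as deposited, and the rule had left out bright clones lower in every pregnant twin. The figures for the set therefore partly follow from the choice.

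Twin differences as deposited were small on average and mixed in sign. In pairs 1, 2, 3 and 5, 66, 75, 85 and 90 of the 147 clones were brighter in the pregnant twin, and in pair 4 it was 40 of 100. Averaged over pairs, 146 of the 147 clones differed by less than 2-fold. In single pairs larger differences occurred, since 69 clones were at least 2-fold apart in at least 1 pair.

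Pair 2 held more of these than any other pair. There, 20 clones were at least 2-fold brighter and 24 at least 2-fold dimmer in the pregnant twin. In the other pairs 3 to 11 clones were 2-fold brighter and 6 to 11 were 2-fold dimmer. Over the set, twins' log2 intensities as deposited correlated with r = 0.44 in pair 2, the lowest of the pairs, and with 0.62 to 0.87 in the others. These are descriptions over clones that share the same 3 hybridisations.

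The size of the average difference in the set depended on the scale, and over all clones its direction did too. The median over the set of the mean log2 difference, pregnant minus control, was -0.048 as deposited and -0.61 after each sample was set to a common median. For all clones it was 0.21 and -0.33. The sample medians, by which the centring divides, were 1.36 to 2.8 in the pregnant animals and 0.86 to 1.95 in the controls, and were higher in the pregnant animal of every pair.

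Clones were called by limma over the whole array with the twin pair as a block and a Benjamini-Hochberg adjusted p under 0.05. After centring, 0 of the 147 clones were called higher, where 11.5% of all clones were. 34 were called lower (23.1%), where 15.9% of all clones were. As deposited, 1 was called higher against 15.9% of all clones, and 0 were called lower against 0.781% of all clones. At an unadjusted p under 0.05 in limma, the centred fit had 1 clone higher and 75 lower, and the deposited scale 3 higher and 1 lower. These counts come from the contrast that chose the clones, so nothing is read from them. Without pair 2 the centred count of lower clones was 3, where 4.1% of all clones were called lower, and without pair 3 it was 1, where 1.69% were. Calls lower thus dropped over the whole array as well.

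The single clone called higher as deposited was 18c-20-H03, on array B. Its controls measured 72.8, 153, 82.4 and 263, and its pregnant twins 268, 273, 363 and 435. The lowest pregnant value lay just above the highest control value, and it was the only clone of the set whose groups did not overlap, where 8.25% of all clones had groups without overlap. The mean log2 difference was 1.40 as deposited (SD 0.72, n = 4 pairs) and 0.84 after centring. It was the largest mean difference in the set on both scales.

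In the set, 5 clones were brighter in the pregnant twin of every pair measured: 18c-20-H03, 18c-04-A10, 18c-28-E08, 18c-16-E09 and 18c-01-E10, all of the 18c prefix. For 18c-20-H03 and 18c-28-E08, on array B, only 4 pairs had to agree. The rule used the twin direction and the share over all clones was not taken, so nothing is read from this count. Their mean log2 differences as deposited were 1.40, 0.59, 0.31, 0.49 and 0.32. After centring they were 0.84, 0.015, -0.25, -0.088 and -0.25, so 3 of the 5 turned sign.

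The next largest centred difference was that of 18f-03-A07, at 0.10 after centring and 0.67 as deposited (SD 1.12, n = 5 pairs). It measured 473, 167, 60.3, 231 and 39.3 in the controls and 311, 411, 138, 172 and 147 in the pregnant twins. With each array set to its own median its difference was -0.22. The pregnant animal was brighter in pairs 2, 3 and 5 and dimmer in pairs 1 and 4.

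At the other end, 18c-08-D12 measured 227, 587, 107, 64.9 and 71.1 in the controls and 261, 428, 79.8, 58.5 and 5.74 in the pregnant twins. Its centred mean log2 difference of -1.47 (SD 1.55, n = 5) drew on pair 5, where the pregnant animal stood at 5.74, and was -0.84 without that pair. 18c-27-C12 measured 91.5, 367, 889 and 572 in the controls and 94.1, 465, 163 and 340.1 in the pregnant twins. In this clone the difference of -1.26 after centring was -0.70 as deposited, and pairs 1 and 2 went the other way as deposited. Without pair 3 the centred difference was -0.57.

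Levels differed between twin pairs for many of the clones. The rule did not use this comparison, although its control mean drew on the same samples. In the limma fit on centred values, the F test for twin pair called 45 of the 147 clones (30.6%) at an adjusted p under 0.05, where 47.5% of all clones were called. The share of the set was below that background. By array, the calls were 19 of 37 clones on array A, 23 of 47 on array B and 3 of 63 on array C, against 59.3, 53.2 and 30.01% of all clones on these arrays. With each array set to its own median, 1 clone of the set was called (adjusted p = 0.0471, 18f-04-C06), against 5.03% of all clones.

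Without pair 2 no clone of the set was called by limma (0 of 147 after centring, with 53 at an unadjusted p under 0.05), nor was any other clone (0% of all clones). Without pair 1 the count was 16 (10.9%), against 23.5% of all clones, so the drop ran across the arrays. The brightness of single arrays moved with it: the median intensity of the set's clones on array A was 301 in the control and 266 in the pregnant animal of pair 2, and between 83.9 and 114 in all other samples. On array B it was highest in pair 5, with 314 in the control and 229.5 in the pregnant animal. The part of hybridisation in these differences was not tested.

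The largest F values were those of 18c-01-E10 (21.4, adjusted p = 0.0129, limma F test) and 18c-1(VS)-A03 (16.3, adjusted p = 0.0168). 18c-01-E10 measured 34.1, 209.7, 77.4, 126 and 71.7 in the controls and 48.3, 228, 92.7, 194 and 77.9 in the pregnant twins. The pregnant twin was 1.09-fold to 1.54-fold brighter, with pair 2 highest and pair 1 lowest in both groups. After centring of each array the adjusted p was 0.0536 for 18c-01-E10 and 0.165 for 18c-1(VS)-A03.

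Some clones differed in opposite directions between pairs. In 16 of the 147 clones the pregnant twin was at least 2-fold brighter in 1 pair and at least 2-fold dimmer in another. This was 10.9% of the set, against 8.27% of all clones. Of these 16, 10 lay on array C, 6 on array A and 0 on array B. Clones on array B had no values in pair 4, and 6 of the 16 were at least 2-fold brighter in that pair. The share of all clones was not taken by array, so the split is not read as a difference between arrays. The fold limit set the count: it was 42 at 1.5-fold and 4 at 3-fold, and without pair 2 it was 8.

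18c-11-D07 was the brightest of 6 array A clones with like profiles (r of at least 0.80 in every pair of them, a limit added after the data were seen). After centring per array the lowest r was 0.72 and the median 0.88. With each array set to the median of its own clones in the set they were 0.65 and 0.84. The 6 clones thus no longer met the limit on either corrected scale. 18c-11-D07 measured 146, 484, 301, 172 and 126 in the controls and 102, 154, 152, 648 and 171 in the pregnant twins. As deposited, all 6 were brighter in the pregnant animal of pair 4, by a median of 2.94-fold, and dimmer in that of pair 2, by a median of 1.94-fold. They were grouped on these same samples, so this agreement partly follows from the grouping.

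Like profiles were common on the same array. With complete linkage at r of at least 0.95 on centred log2 values, 10 sets of 3 or 4 clones formed, holding 34 of the 147 clones, and each set lay on 1 array. Across all pairs of the 147 clones, r had a median of 0.57 on the same array and 0.095 on different arrays. After each array was set to the median of its own clones in the set, these medians were 0.066 and -0.0097. This correction removes any level that the set's clones on an array share, whatever its source. The part of array brightness in the likeness was therefore not tested, and corrected values are given beside the sets described.

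At r of at least 0.90, a limit added after the data were seen, 11 array C clones from 8 plates formed a set, 8 of prefix 18f and 3 of prefix 18e. Between these clones the lowest r was 0.90 and the median 0.95 after sample centring. After centring per array the lowest was 0.76 and the median 0.93, and with centring on the 147 clones of each array they were 0.52 and 0.82. The 11 clones thus no longer met the limit on either corrected scale, where the largest sets held 6 and 5 other array C clones, led by 18f-02-C11. Their median intensities were 467, 147, 70.1, 192 and 105 in the controls of pairs 1 to 5 and 227, 404, 138, 164 and 150.5 in the pregnant twins.

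As deposited, all 11 clones were brighter in the control of pair 1, by a median of 1.97-fold. All 11 were brighter in the pregnant animal of pairs 2, 3 and 5, by medians of 2.72-fold, 1.87-fold and 1.39-fold. In pair 4, 3 of 11 were brighter in the pregnant animal. With each array set to its own median, the median log2 differences in pairs 1 to 5 were -1.75, 0.59, -0.38, -0.90 and -0.41. The direction in pairs 3 and 5 thus turned. The clones were grouped on likeness over these same samples and share hybridisations. Their agreement within a pair partly follows from the grouping and is only a description. The brightest of the set, 18e-02-A07, measured 627, 166, 63.1, 222 and 64.5 in the controls and 272, 394, 118, 166 and 156 in the pregnant twins. Its control SD was 233 on a mean of 229 (n = 5), so the control of pair 1 alone held more than the other 4 together. Of the 16 clones with opposite differences, 5 were in this set.

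Few dimmer clones shared the profile. Of the 4608 clones, 23 correlated at r of at least 0.90 with the mean profile of the 11, of which 16 were among the 147 clones and 7 were not. Those 7 had a median control mean of 85.0, with a highest value of 96.0, close below the limit. Whether the 11 clones carry the same cDNA was not tested, since their sequences were not used here.

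The brightest clones of cycling endometrium were not all in the set. 18c-30-A05 and 18c-30-G04, both on array B, had the highest control means on the arrays, 804 and 786, and were left out as lower in every pregnant twin. 18c-30-A05 measured 494, 1042, 1027 and 653 in the controls and 425.5, 337, 676 and 576 in the pregnant twins. The gap was smaller in 18c-30-G04, with 629, 923, 807 and 787 in the controls and 556, 766, 704 and 686 in the pregnant twins. Over the 32 clones left out, the mean log2 difference as deposited ranged from -2.01 to -0.20 with a median of -0.60, and 19 of them still had a pregnant mean of at least 100.

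More clones reached an intensity of 100 in pregnant than in control endometrium. Over the 3071 clones with values in all samples, pairs 1 to 5 had 204, 261, 76, 142 and 143 such clones in the pregnant twin and 106, 219, 50, 74 and 64 in the control. The mean difference was 62.6 clones (SD 28.8, n = 5 pairs), higher in 5 of 5 pairs, with p = 0.0625 in an exact two-sided sign-flip test, the smallest p that 5 pairs allow. After samples were scaled to a common median the mean difference was -11 clones (exact sign-flip p = 0.625), opposite in sign. With samples scaled on the 95th percentile it was 10.4 clones (exact sign-flip p = 0.125).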

How the data were processed

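Total RNA of 10 endometrium samples was converted to 33P-labelled cDNA and hybridised to cDNA arrays, per the labels. Each clone has a single linear intensity per sample, as deposited by the authors. How images were analysed, background removed and values normalised was not given in the sources used here. The clones and the lists were chosen with earlier results of these data known.

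Means, shares and counts were taken from intensities as deposited. For spread, profiles and tests, each sample was divided by its median relative to the geometric mean of the medians, values below 0.116 (the 5th percentile of positive values) were raised to it, and log2 was taken. The deposited intensities were fitted in the same way on the log2 scale without centring. limma 3.58.1 in R 4.3.3 was fitted to all 4608 clones with the twin pair as a block, with Benjamini-Hochberg adjustment. Python 3.11.15, pandas 2.3.3 and scipy 1.17.1 were used for the rest. Arrays were inferred from plate names and from the values absent in pair 4. The number of arrays limits the precision.

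Partners were taken from consecutive animal numbers and equal ages in the labels. Over 100 clones of the set, deviations from the group means correlated between twins with r of 0.24 to 0.69. For 7 of 10 samples the twin correlated best among the other group; this failed for both animals of pair 4 and for the pregnant animal of pair 2. As the animals are labelled twins and every r was above 0.1, the pair stayed a block. Tested on simulated data of 4608 clones, the pregnant-minus-control fit recovered 29% of changes of 1 and 80% of changes of 2 on the log2 scale. The test between pairs recovered 0% and 29%.

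Named clones are the 6 with the highest control mean, the brightest of each prefix, the 2 largest and 2 smallest centred differences, control SDs (2 each), the 2 largest F values, 2 clones on each side of the limit, the 2 brightest left out, and the brightest of each described set of like profiles. Alternatives were other limits, scalings, floors, moderation, no block and each pair left out. Added after the data were seen were looser limits for profiles, array-wise centring of profiles, other folds for opposite differences and the mirrored choice.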

Additional observations from a re-analysis of the deposited data

Results flagged for a closer look

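Among the values per sample and of the named clones, 10 stood far from the rest of their group by Dixon's criterion, out of 102 groups examined. Chance alone marks about 1 in 20 independent groups. The groups here share samples, and some clones were named for extreme values. The count is therefore not weighed against that rate.

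Most came from pair 2. The median intensity of the 147 clones was 232 in its control, with the next control at 133, and 255 in its pregnant animal, with the next at 138. In its control 98.0% of the clones were at 100 or above, with the next control at 68%. 18f-02-A04 measured 181 in that control, and its next control measured 87. In the pregnant animal of pair 2, 18c-03-A11 measured 398 (next 108), 18e-01-C05 measured 241 (next 116) and 18f-1(VS)-B05 measured 536 (next 227).

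Outside pair 2, 18e-02-A07 measured 627 in the control of pair 1, with the next control at 222. 18c-11-D07 measured 648 in the pregnant animal of pair 4, with the next at 171. The centred log2 difference of 18c-08-D12 was -3.97 in pair 5, with the next at -1.29.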

How the results depend on the processing

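The number of clones meeting the rule was 297 with a limit of 50, 54 with a limit of 200 and 92 after samples were scaled to a common median, and 111 to 153 with a pair left out. Clones called higher in pregnancy numbered 1 as deposited, after quantile normalisation and with each array centred, and, on centred values, 0 with any pair left out. On the deposited scale it stayed at 1 without pair 4 or pair 5 and was 0 without pair 1, 2 or 3. Clones called lower numbered 0 as deposited, 13 after quantile normalisation, 6 with samples scaled on the 95th percentile, 0 with no replicate block, and 1 to 21 with a twin pair left out. Unadjusted, limma without the block had 22 lower and 0 higher. Calls between pairs numbered 73 as deposited (49.7%, against 60.5% of all clones), 1 with each array centred (5.03% of all clones), 19 with values required in all 5 pairs (19% of 100 clones, against 41.6%), and 0 to 43 with a pair left out (0 to 46.6% of all clones). The median log2 difference was -0.048 as deposited and -0.30 after quantile normalisation, and -0.67 to -0.55 with a pair left out. The difference in clones at 100 or more turned to -11 after median scaling. Opposite differences numbered 42 at 1.5-fold, 4 at 3-fold and 8 to 15 with a pair left out. The share difference was -3.98 percentage points within array B and -13.5 within array C. Of 30 named clones, 11 changed the sign of their centred difference on the deposited scale. The causes of these changes were not tested. The labels of pair 2, the unknown normalisation and the small number of animals limit every value here.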
